A study of Drosophila melanogaster with 13 samples.

Results

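The genes described are 10 neuroblast transcription factors and asymmetric division proteins, dpn, wor, ase, mira, insc, klu, grh, esg, SoxN and nab, chosen by symbol from the 17633 genes of the count table. All 10 had enough counts to be tested, as did 7451 genes in all. RNA was counted in clones sorted by flow cytometry from the larval optic lobe of *Drosophila melanogaster*, the visual centre of the brain, at the wandering L3 stage. Clone cells were nerfin-1[159] mutant, lola[E76] mutant or WT, with 3 libraries of each genotype. The WT columns carry the name FRT42D, the lola[E76] columns Lola42D and the nerfin-1[159] columns Nerfin2A. By name, lola[E76] thus shares the 42D tag with WT and nerfin-1[159] does not. Each comparison of nerfin-1[159] with WT or lola[E76] also sets different tags against each other, for every gene. The part of the tag, and of any stock difference that goes with it, was not tested. A second assay, Targeted DamID, recorded where the Lola.N isoform, tethered to the methylase Dam, touched DNA, in 2 replicates (N1 and N2) of cells of the L3 brain that express ey16F10-GAL4, a driver made from the eyeless gene. Those cells are defined by the driver and the RNA clones by genotype, so both assays need not sample the same cells.

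Neuroblasts are the neural stem cells of the fly. Each division renews the neuroblast and gives off a ganglion mother cell, whose daughters become neurons or glia. The neuroblast keeps self-renewal factors such as Deadpan, Worniu and Klumpfuss active, while Inscuteable orients the spindle and Miranda carries fate determinants such as Prospero into the ganglion mother cell. In the optic lobe, neuroblasts of the medulla arise from a neuroepithelium, and the zinc finger factors Lola and Nerfin-1 are known for keeping their neuronal progeny from returning to a neuroblast state.

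Libraries held 3465601 to 5200223 counts, so that 3 counts corresponded to 0.568 to 0.849 CPM (counts scaled to library size). Each library pooled sorts of different days and the labels name no separate animals, so the spread behind each p-value is that between these pools. The nerfin-1 tags stood at 9.10 ± 8.38 CPM in nerfin-1[159] clones against 283.6 ± 25.8 CPM in WT (SD, n = 3 each). The lola tags stood at 1984 ± 222 CPM in lola[E76] clones, 2565 ± 117 CPM in nerfin-1[159] clones and 1763 ± 173 CPM in WT. These 3′ tags do not check the lola[E76] genotype, and the sources used here do not give the place of the allele relative to them. 5 of the 10 genes overlap another annotated gene, ase with CG32816, mira with Hs6st, insc with sktl, grh with an antisense RNA and dpn with an antisense RNA and long non-coding RNAs. The sources used here do not say whether counting used strand, so reads of these pairs may be shared.

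Over all genes lola[E76] replicate 1 stood apart from the rest of its genotype, at 40.4 on the third principal component of log2 CPM against -39.2 and -28.7 for replicates 2 and 3. In the 10 genes described here it was WT replicate 1 that stood apart. It held 5 counts of dpn, or 1.35 CPM (exact Poisson 95% interval 0.438 to 3.15, counting error only), against 10.4 and 11.6 CPM in WT replicates 2 and 3. Its levels of mira (18.1 CPM against 78.3 and 86.8 CPM), klu (28.6 against 132.2 and 116.9 CPM) and grh (7.56 against 20.8 and 20.6 CPM) were also under 0.5 of the level of both other WT libraries. That was so for 4 of the 10 genes, while 6.40% of all tested genes met the same rule. The other 6 genes were not depleted in that way: ase, insc, esg, SoxN and nab were above the mean of the other WT libraries, by factors between 1.09 and 1.67, and wor was at 0.572 of it. Among 12 genes of dividing cells, CycE, PCNA, Mcm2 and Mcm5 met the rule, while 0 of 8 neuron markers did. So did Optix, crb and l(1)sc among 7 neuroepithelium and lamina markers, and Col4a1. In nerfin-1[159] replicate 1, grh alone met it, and in the other 7 libraries 0 of the 10 genes did. Values without WT replicate 1 are therefore given beside the results.

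**Figure D1:**
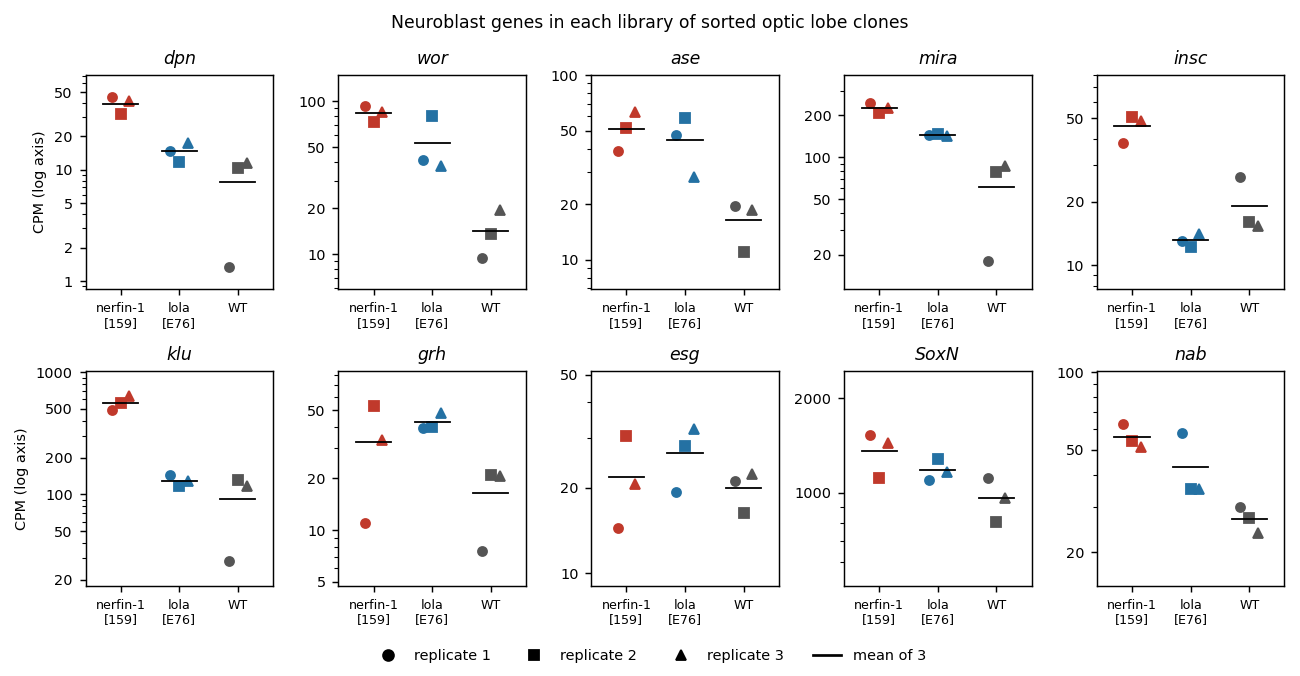
Level of each gene in CPM (log axis) in the 9 libraries, by genotype, with the replicate number as marker shape and the mean of 3 as a bar. In WT, replicate 1 lies at 1.35 CPM for dpn, 18.1 CPM for mira, 28.6 CPM for klu and 7.56 CPM for grh, under the other WT libraries.

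The question was how loss of Nerfin-1 or of Lola in clones bears on the neuroblast programme. In nerfin-1[159] clones 8 of the 10 genes rose against WT and 0 fell (6.27% of all tested genes did), from klu at 6.03-fold and wor at 5.84-fold to SoxN at 1.42-fold. In lola[E76] clones wor (3.70-fold), ase (2.73-fold) and mira (2.35-fold) rose and 0 fell (2.91% of all tested genes did). Set directly against lola[E76], nerfin-1[159] clones had more klu, insc and dpn, and 0 of the 10 genes were lower (8.58% of all tested genes were). Among all tested genes 5.66% were called higher in nerfin-1[159] clones than in WT, 3.58% higher in lola[E76] clones than in WT and 6.94% higher in nerfin-1[159] than in lola[E76] clones. Calls in either direction were 11.9%, 6.50% and 15.5% of the tested genes. A call is an adjusted p under 0.05 in the quasi-likelihood test of edgeR, adjusted over all tested genes by Benjamini-Hochberg and written below as edgeR adjusted p, and log2 differences are given ± SE. In these bulk samples more neuroblasts, more RNA per neuroblast and RNA of these genes in other cells cannot be told apart. Both mutants were compared with the same WT libraries.

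The members' libraries were also read by position. Those of nerfin-1[159] lay wholly above those of WT for 7 of the 10 genes, against 14.9% of all tested genes. Those of lola[E76] lay wholly above WT for 6 genes and wholly below for insc, against 12.7% and 12.1% of all tested genes. The nerfin-1[159] libraries lay wholly above the lola[E76] libraries for dpn, mira, insc and klu, against 14.9% of all tested genes. The median log2 difference of the 10 genes was 1.45 for nerfin-1[159] against WT, 0.78 for lola[E76] against WT and 0.52 for nerfin-1[159] against lola[E76]. Over all tested genes the medians were 0.002, -0.002 and 0.005.

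Self-renewal factors came first. The gene dpn encodes Deadpan, a basic helix-loop-helix repressor that marks neuroblasts. It was at 45.0, 31.6 and 41.9 CPM in nerfin-1[159] libraries, at 14.8, 11.8 and 17.4 CPM in lola[E76] libraries and at 1.35, 10.4 and 11.6 CPM in WT libraries. The 3 genotypes did not overlap, with nerfin-1[159] highest and WT lowest. Between lola[E76] replicate 2 and WT replicate 3 the gap was within counting error (exact Poisson 95% intervals 8.93 to 15.42 and 8.84 to 14.85 CPM). Against WT, dpn rose by 2.31 ± 0.46 (log2) in nerfin-1[159] clones (edgeR adjusted p = 0.00186; 1.84 without WT replicate 1, edgeR adjusted p = 0.00172). In lola[E76] clones its log2 difference of 0.88 ± 0.46 was not called (95% interval -0.08 to 1.84, edgeR adjusted p = 0.317), and it was 0.42 without WT replicate 1. The difference of 1.43 ± 0.44 between nerfin-1[159] and lola[E76] clones was called (edgeR adjusted p = 0.0323). Leaving out any lola[E76] library, or nerfin-1[159] replicate 1 or 3, ended that call (edgeR adjusted p between 0.0565 and 0.105).

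The gene klu encodes Klumpfuss, a zinc finger factor that sustains neuroblast self-renewal. Its levels were 493.8, 556.4 and 638.1 CPM in nerfin-1[159] libraries, 144.0, 117.0 and 128.7 CPM in lola[E76] libraries and 28.6, 132.2 and 116.9 CPM in WT libraries. Every nerfin-1[159] library was above every other library, while the lola[E76] libraries overlapped WT replicates 2 and 3. The rise in nerfin-1[159] clones was 2.59 ± 0.32 (log2, edgeR adjusted p = 1.7e-05; 2.17 without WT replicate 1). For lola[E76] clones the log2 difference was 0.48 ± 0.31 (95% interval -0.17 to 1.13, edgeR adjusted p = 0.458), and 0.06 without WT replicate 1. A fit with no filter on low counts did call it (edgeR adjusted p = 0.0338). Between the mutants klu differed by 2.12 ± 0.31 (edgeR adjusted p = 9.47e-05), and that call held in all 9 fits that left out 1 library.

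The Snail family factor Worniu, encoded by wor, promotes neuroblast division. Its gene was at 93.2, 73.2 and 85.3 CPM in nerfin-1[159] libraries, at 41.4, 80.2 and 37.8 CPM in lola[E76] libraries and at 9.45, 13.5 and 19.5 CPM in WT libraries. Both mutants were wholly above WT, and lola[E76] replicate 2 fell within the nerfin-1[159] range. The rises were 2.55 ± 0.30 in nerfin-1[159] clones (log2, edgeR adjusted p = 1.14e-05) and 1.89 ± 0.30 in lola[E76] clones (edgeR adjusted p = 0.0004). Without WT replicate 1 they were 2.34 and 1.68, and both remained called. Between the mutants the difference of 0.66 ± 0.28 missed the threshold (95% interval 0.08 to 1.24, edgeR adjusted p = 0.123). Leaving out lola[E76] replicate 2 brought it past the threshold (1.08, edgeR adjusted p = 0.0113), as did a fit with no filter (edgeR adjusted p = 0.041) and limma voom (adjusted p = 0.0405).

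Asense, encoded by ase, is a proneural factor of the achaete-scute complex that persists in neuroblasts. The gene was at 38.8, 51.4 and 62.9 CPM in nerfin-1[159] libraries, at 47.4, 58.2 and 28.2 CPM in lola[E76] libraries and at 19.5, 11.0 and 18.6 CPM in WT libraries. The mutants overlapped each other and both lay wholly above WT. Rises against WT were 1.64 ± 0.30 in nerfin-1[159] clones (log2, edgeR adjusted p = 0.000942) and 1.45 ± 0.30 in lola[E76] clones (edgeR adjusted p = 0.00479). The log2 difference between nerfin-1[159] and lola[E76] clones was 0.20 ± 0.29 with a 95% interval of -0.41 to 0.80 (edgeR adjusted p = 0.733). Leaving out any 1 library kept both rises over WT called, at 1.42 to 1.81 in nerfin-1[159] clones and 1.21 to 1.69 in lola[E76] clones.

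The remaining transcription factors are esg, grh, SoxN and nab. Escargot, encoded by esg, also belongs to the Snail family, and its gene lies in the same cluster on 2L as wor. It was at 14.4, 30.3 and 20.5 CPM in nerfin-1[159] libraries, 19.4, 28.0 and 32.2 CPM in lola[E76] libraries and 21.1, 16.2 and 22.4 CPM in WT libraries. These ranges overlapped throughout. Neither log2 difference from WT was called, with 0.13 ± 0.32 for nerfin-1[159] (95% interval -0.54 to 0.81) and 0.42 ± 0.32 for lola[E76] (95% interval -0.25 to 1.08). The sign for nerfin-1[159] turned to -0.19 without nerfin-1[159] replicate 2.

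Grainy head, encoded by grh, is a factor of older neuroblasts. The gene was at 11.0, 52.9 and 33.6 CPM in nerfin-1[159] libraries, at 39.2, 39.9 and 48.2 CPM in lola[E76] libraries and at 7.56, 20.8 and 20.6 CPM in WT libraries. The nerfin-1[159] libraries ranged over 4.79-fold and overlapped WT, while the lola[E76] libraries lay within 1.23-fold of each other and wholly above WT. Neither difference from WT was called, at 0.98 ± 0.42 for nerfin-1[159] (log2, edgeR adjusted p = 0.165) and 1.36 ± 0.42 for lola[E76] (edgeR adjusted p = 0.062). Without nerfin-1[159] replicate 1 the value for nerfin-1[159] was 1.38 and was called (edgeR adjusted p = 0.0149). Without nerfin-1[159] replicate 2 it was 0.43. With no filter the nerfin-1[159] difference was 0.97 and was called (edgeR adjusted p = 0.0166). The lola[E76] difference was called with no filter (edgeR adjusted p = 0.000259), in a fit on lola[E76] and WT alone (edgeR adjusted p = 0.0217), with limma voom (adjusted p = 0.0391) and with the DESeq2 Wald test (adjusted p = 0.0322). It was also called without nerfin-1[159] replicate 1 or 2 (edgeR adjusted p = 0.0136 and 0.0473), and without WT replicate 1 it was 1.03 (edgeR adjusted p = 0.24).

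SoxNeuro, encoded by SoxN, is a SoxB factor of neural progenitors. The gene was at 1531, 1110 and 1441 CPM in nerfin-1[159] libraries, 1098, 1284 and 1163 CPM in lola[E76] libraries and 1116, 805.3 and 962.6 CPM in WT libraries. WT replicate 1 lay within the range of both mutants. The rise in nerfin-1[159] clones was 0.50 ± 0.13 (log2, edgeR adjusted p = 0.0139; 0.62 without WT replicate 1). Without WT replicate 2, or nerfin-1[159] replicate 1 or 3, it was no longer called (edgeR adjusted p between 0.069 and 0.108). For lola[E76] clones the log2 difference was 0.30 ± 0.13 (edgeR adjusted p = 0.212).

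The gene nab encodes a transcriptional cofactor that acts with neural zinc finger factors. It was at 63.1, 54.2 and 51.2 CPM in nerfin-1[159] libraries, 58.1, 35.1 and 35.3 CPM in lola[E76] libraries and 30.0, 27.1 and 23.7 CPM in WT libraries. Both mutants lay wholly above WT, and lola[E76] replicate 1 was within the nerfin-1[159] range. The rise in nerfin-1[159] clones was 1.06 ± 0.24 (log2, edgeR adjusted p = 0.00564) and stayed called whichever library was left out, at 0.97 to 1.14. In lola[E76] clones the log2 difference was 0.67 ± 0.24 (95% interval 0.17 to 1.18, edgeR adjusted p = 0.114), and 0.39 without lola[E76] replicate 1.

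The asymmetric division proteins are Miranda and Inscuteable. Miranda, encoded by mira, is the adaptor that segregates Prospero, Brat and Staufen to the basal side. Its gene was at 244.4, 208.1 and 226.8 CPM in nerfin-1[159] libraries, at 144.5, 147.2 and 142.8 CPM in lola[E76] libraries and at 18.1, 78.3 and 86.8 CPM in WT libraries. The 3 genotypes did not overlap, and the lola[E76] libraries lay within 1.03-fold of each other. Against WT, mira rose by 1.87 ± 0.32 (log2) in nerfin-1[159] clones (edgeR adjusted p = 0.000468) and by 1.23 ± 0.32 in lola[E76] clones (edgeR adjusted p = 0.0216). Without WT replicate 1 these values were 1.45 and 0.81, and both were called (edgeR adjusted p = 6.22e-06 and 0.00348). The lola[E76] call did not hold when lola[E76] replicate 2 or 3 was left out (edgeR adjusted p = 0.0593 and 0.0546), in a fit on lola[E76] and WT alone (edgeR adjusted p = 0.0515) and with the DESeq2 Wald test (adjusted p = 0.116). The difference of 0.64 ± 0.31 between nerfin-1[159] and lola[E76] clones missed the threshold (edgeR adjusted p = 0.182). It passed with WT replicate 1 left out (edgeR adjusted p = 0.00228), with no filter (edgeR adjusted p = 0.000947) and in a fit on both mutants alone (edgeR adjusted p = 0.00394).

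Inscuteable, encoded by insc, joins the apical Par complex to the spindle orientation protein Pins. The gene was at 38.2, 50.4 and 48.5 CPM in nerfin-1[159] libraries, at 13.1, 12.3 and 14.1 CPM in lola[E76] libraries and at 26.2, 16.0 and 15.4 CPM in WT libraries. Nerfin-1[159] libraries were wholly above WT and lola[E76] libraries wholly below. The rise in nerfin-1[159] clones was 1.26 ± 0.28 (log2, edgeR adjusted p = 0.00498; 1.54 without WT replicate 1). The log2 difference of -0.54 ± 0.29 for lola[E76] clones was not called (95% interval -1.14 to 0.07, edgeR adjusted p = 0.34). It was -0.25 without WT replicate 1. Between nerfin-1[159] and lola[E76] clones insc differed by 1.80 ± 0.29 (edgeR adjusted p = 0.000196), at 1.71 to 1.91 when any 1 library was left out.

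**Figure D2:**
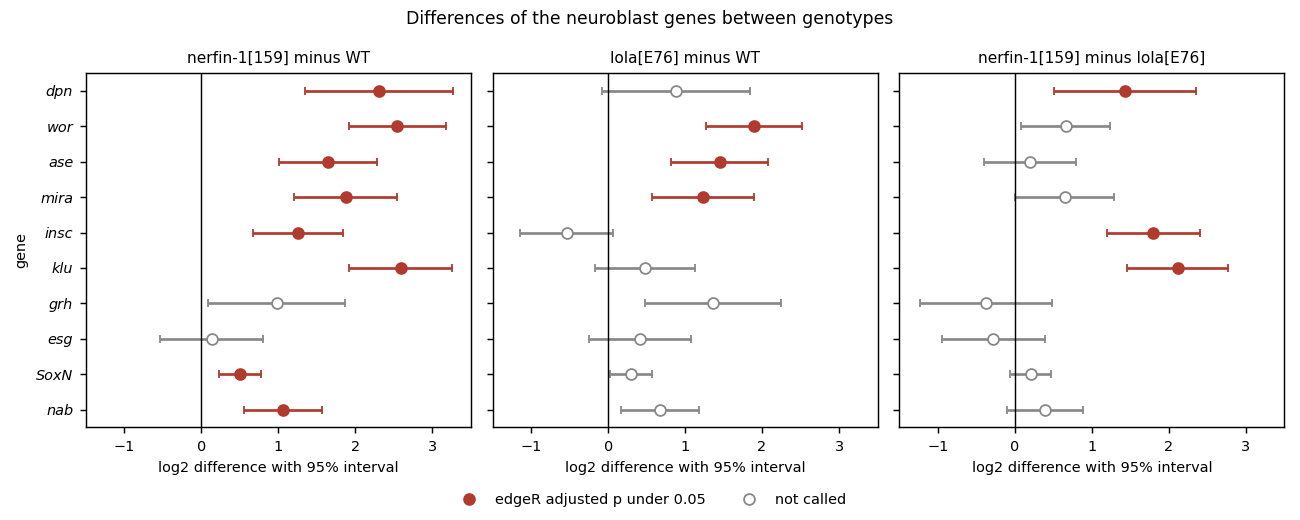
Fitted log2 difference of each gene with its 95% interval in the 3 comparisons of genotypes, filled where the edgeR adjusted p is under 0.05. In nerfin-1[159] against WT 8 of 10 genes are filled, in lola[E76] against WT wor, ase and mira, and in nerfin-1[159] against lola[E76] dpn, insc and klu.

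With WT replicate 1 left out, 8 of the 10 genes were still called in nerfin-1[159] clones and 3 in lola[E76] clones. Over all genes, 644 and 315 were called in that fit, against 889 and 484 with all libraries. Over the 9 fits that each left out 1 library, the calls numbered 7 to 8 for nerfin-1[159] against WT, 2 to 4 for lola[E76] against WT and 2 to 4 for nerfin-1[159] against lola[E76]. Over all genes the same fits called 593 to 1008, 315 to 497 and 889 to 1135 genes in these comparisons. Among the calls against WT, wor and ase were called in both mutants in all 9 of these fits.

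**Figure D3:**
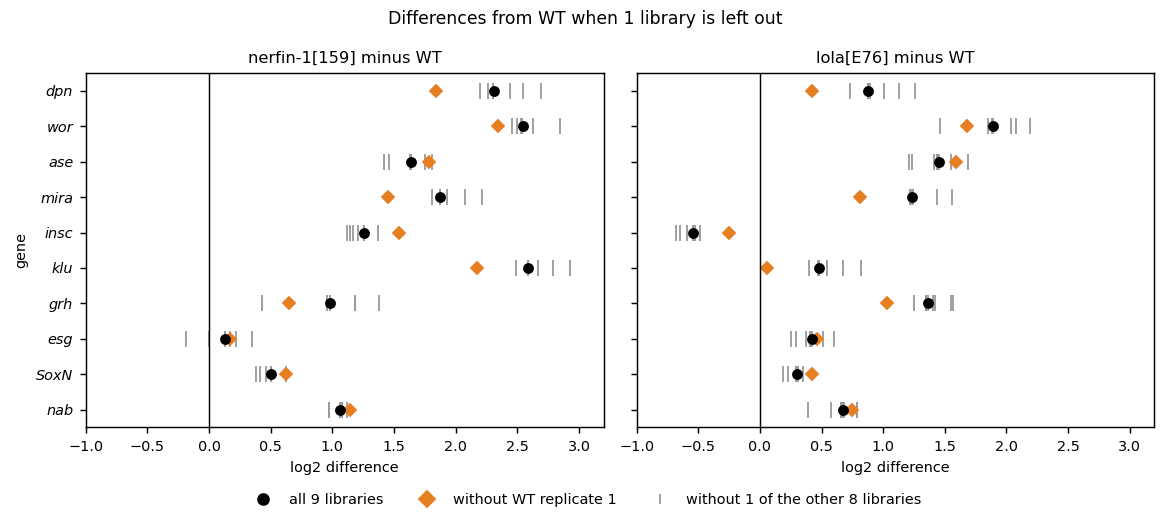
Fitted log2 difference of each gene from WT with all 9 libraries (circles), without WT replicate 1 (diamonds) and without each of the other 8 libraries (ticks). Leaving out WT replicate 1 moves klu in lola[E76] clones to 0.06 and dpn to 0.42, while wor stays at 1.68.

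The chromosome arms of the genes bear on the clone genotypes. The genes dpn, insc and grh lie on 2R, as does lola, and klu and nab lie on 3L, as does nerfin-1. Linkage to the mutated allele on the same arm thus concerns dpn, insc and grh in lola mutant clones, and klu and nab in nerfin-1 mutant clones. Both sets are concerned where the mutants are compared with each other. In those cases an effect of a variant linked to the mutated allele was not separated from that of losing the factor. The genes wor, esg and SoxN on 2L, ase on X and mira on 3R lie on other arms. However, 2L and 2R are arms of the same chromosome, as are 3L and 3R. Thus ase alone lies on a chromosome with neither lola nor nerfin-1. Of the 5 genes on other arms, wor, ase and mira were called in both mutants. An effect of variants on the other arm of a mutant chromosome was not tested. The difference in column tag between nerfin-1 mutant clones and WT holds for genes on every arm, these included.

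Partners of polarity and division were examined as a list of 22 genes, 21 of them tested. In nerfin-1[159] clones 9 rose and 1 fell (5.66% and 6.27% of all tested genes did), with a median log2 difference of 0.58. The rises were led by cno, which encodes Canoe, a junctional and spindle orientation protein, which averaged 83.4 ± 16.1 CPM in nerfin-1[159] clones and 19.5 ± 4.20 CPM in WT, SD, n = 3 each (2.09 ± 0.23, edgeR adjusted p = 5.49e-06). Next were Galphai, the G protein subunit that binds Pins (1.09 ± 0.14, edgeR adjusted p = 2.89e-05), and baz, the Par-3 protein to which Inscuteable binds (1.23 ± 0.18, edgeR adjusted p = 0.000125). The fall was of pros, the cargo of Miranda, to 5549 ± 938 CPM in nerfin-1[159] clones against 14030 ± 3010 CPM in WT (-1.34 ± 0.16, edgeR adjusted p = 1.3e-05). The 10 calls were reduced to 6 without WT replicate 1, WT replicate 2 or nerfin-1[159] replicate 3.

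In lola[E76] clones cno (1.54 ± 0.23, edgeR adjusted p = 0.000234), baz (1.20 ± 0.18, edgeR adjusted p = 0.000305) and l(2)gl, a basal polarity protein (0.78 ± 0.17, edgeR adjusted p = 0.00854), rose among these 21 genes and 0 fell. Of all tested genes 3.58% rose and 2.91% fell. The list median was 0.30. For l(2)gl the call ended with WT replicate 2 or lola[E76] replicate 2 left out (highest edgeR adjusted p 0.058), and 6 genes of the list were called without lola[E76] replicate 3. Both cno and baz were called under every alternative tried, in both mutants. Between nerfin-1[159] and lola[E76] clones Galphai (0.91 ± 0.14) and pon, a Numb partner (1.27 ± 0.32), were higher and pros (-0.83 ± 0.16) and dlg1, a cortical scaffold (-0.56 ± 0.11), were lower. The edgeR adjusted p for these 4 lay between 0.000135 and 0.00992, and the pon call was lost without nerfin-1[159] replicate 3 (edgeR adjusted p = 0.0671). The spindle protein gene mud had 5 counts in lola[E76] libraries and was listed at 0 in the other genotypes.

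Relatives of the 10 genes gave a different picture. Of 20, 17 were tested, and the medians were -0.04 for nerfin-1[159] and -0.02 for lola[E76] against WT. The largest call was of sc, which encodes Scute, a proneural neighbour of ase in the achaete-scute complex on X. It held 140, 120 and 197 counts in lola[E76] libraries, 16, 13 and 20 in nerfin-1[159] libraries and 9, 6 and 5 in WT libraries. All lola[E76] libraries stood above all others. Scute thus rose by 4.51 ± 0.47 in lola[E76] clones (log2, edgeR adjusted p = 6.48e-06) and was lower in nerfin-1[159] than in lola[E76] clones by a log2 difference of -2.98 ± 0.42 (edgeR adjusted p = 5.6e-05). Its rise of 1.53 ± 0.49 in nerfin-1[159] clones (edgeR adjusted p = 0.0457) was lost under 11 of 16 alternatives, with adjusted p up to 0.365 (limma voom). Among them were 7 of the 9 fits that left out 1 library, namely each lola[E76] library, nerfin-1[159] replicates 1 and 3 and WT replicates 2 and 3.

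The neighbouring proneural gene l(1)sc, lethal of scute, had 21, 61 and 44 counts in lola[E76] libraries, 0, 16 and 22 in nerfin-1[159] libraries and 0, 5 and 3 in WT libraries. Its rise in lola[E76] clones (3.99 ± 1.13, edgeR adjusted p = 0.0383) was lost under 8 of 16 alternatives, with adjusted p up to 0.131. These were limma voom and the fits that left out any WT library or replicate 2 or 3 of either mutant. Achaete (ac), the remaining gene of the complex, had 0 counts in nerfin-1[159], 3 in lola[E76] and 1 in WT libraries. In nerfin-1[159] clones, by contrast, E(spl)mgamma-HLH, a Notch-driven neuroblast repressor related to Deadpan, stood at 245.9 ± 46.8 CPM and in WT at 91.5 ± 6.96 CPM, a rise (1.42 ± 0.18, edgeR adjusted p = 1.81e-05). It was also higher in nerfin-1[159] than in lola[E76] clones (1.35 ± 0.18, edgeR adjusted p = 2.65e-05). The other E(spl) genes of the list, and the related gene Hey, were not called in nerfin-1[159] clones against WT. Their log2 differences were -1.63 for E(spl)m3-HLH, -1.48 for E(spl)m5-HLH, -1.20 for Hey, -0.16 for E(spl)m7-HLH and -0.04 for E(spl)mbeta-HLH. Those of E(spl)m8-HLH and E(spl)mdelta-HLH were 0.38 and 0.66. The neuronal Snail family gene scrt fell in nerfin-1[159] clones (-0.58 ± 0.11, edgeR adjusted p = 0.00117). Without nerfin-1[159] replicate 1 or 2, 5 relatives were called against WT in place of 3.

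Genes of dividing cells moved with the neuroblast genes in nerfin-1[159] clones. Of 12, 7 rose and 0 fell (5.66% and 6.27% of all tested genes did), with a median of 0.80. Among the 7 was polo, also counted with the division partners. The rises were led by CycA, a mitotic cyclin (1.29 ± 0.15, edgeR adjusted p = 1.34e-05), and stg, the mitotic phosphatase String (0.98 ± 0.15, edgeR adjusted p = 0.000167). The summed level of the 12 genes was 1987 to 2300 CPM in nerfin-1[159], 1202 to 1551 CPM in lola[E76] and 790.3 to 1498 CPM in WT libraries. WT replicate 1 had the lowest sum, and without it 3 of the 12 were called. The count was 4 without nerfin-1[159] replicate 1 and 3 without nerfin-1[159] replicate 3. In lola[E76] clones CycB alone was called (0.83 ± 0.22, edgeR adjusted p = 0.0289), and 0 to 4 of the 12 were called when 1 library was left out. The lowest count came from leaving out replicate 1 or 2 of lola[E76] or of WT, and the highest without WT replicate 3. Between nerfin-1[159] and lola[E76] clones stg (1.40 ± 0.15) and CycA (0.89 ± 0.15) were higher.

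Markers of other cells changed beside these genes. Of 8 neuron markers 6 fell in nerfin-1[159] clones (para, brp, Syt1, Rdl, VAChT and nSyb) and 2 in lola[E76] clones, and 0 rose. Of all tested genes 6.27% and 2.91% fell in these clones. The neuron marker elav was not called in nerfin-1[159] clones (-0.09 ± 0.10, edgeR adjusted p = 0.72) or lola[E76] clones (-0.18 ± 0.10, edgeR adjusted p = 0.378), and neither was cpx. VAChT, the acetylcholine transporter of synaptic vesicles, fell in both (-2.26 ± 0.20 and -1.14 ± 0.19, edgeR adjusted p = 3.71e-07 and 0.000593). The vesicle fusion gene nSyb also fell in both, with -1.55 ± 0.31 in nerfin-1[159] clones (edgeR adjusted p = 0.00206) and -3.78 ± 0.35 in lola[E76] clones (edgeR adjusted p = 1.71e-06). It was higher in nerfin-1[159] than in lola[E76] clones (2.22 ± 0.34, edgeR adjusted p = 0.000119), while 5 of the 8 neuron markers, VAChT among them, were lower. The summed level of the neuron list was 2845 to 3259 CPM in nerfin-1[159], 2998 to 3446 CPM in lola[E76] and 3831 to 4518 CPM in WT libraries. Most of that sum was elav, at 2345 ± 113, 2194 ± 237 and 2492 ± 295 CPM in these genotypes (SD, n = 3 each). Of 4 ganglion mother cell markers, tap (1.13 ± 0.18) and dap (0.74 ± 0.17) rose in nerfin-1[159] clones. There pros fell, which is also counted among the division partners. The remaining marker, nerfin-1, fell too, but it is the gene mutated in these clones. The dap call was lost without WT replicate 2 (edgeR adjusted p = 0.0611). In lola[E76] clones nerfin-1 alone of these 4 was called, at -1.03 ± 0.28 (edgeR adjusted p = 0.0342), and it was not called with any WT or lola[E76] library left out (edgeR adjusted p between 0.0705 and 0.121).

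Glial markers summed to 177.8 to 197.9 CPM in nerfin-1[159], 170.2 to 253.1 CPM in lola[E76] and 151.8 to 164.5 CPM in WT libraries. Of 6 tested, wrapper was called in lola[E76] clones (3.95 ± 0.81, edgeR adjusted p = 0.00442) and 0 in nerfin-1[159] clones (1 under 7 of 16 alternatives). The defining glial gene repo was at 4.25, 6.27 and 3.46 CPM in nerfin-1[159], 0, 0.215 and 6.92 CPM in lola[E76] and 8.10, 3.54 and 5.12 CPM in WT libraries. Neuroepithelial and lamina markers summed to 363.3 to 415 CPM in nerfin-1[159], 373.8 to 418 CPM in lola[E76] and 339.5 to 430.7 CPM in WT libraries, so these ranges overlapped. Of those 7 genes, shg rose in both mutants (0.73 ± 0.17 and 0.66 ± 0.17), Vsx1 fell in nerfin-1[159] clones (-0.75 ± 0.21), and l(1)sc rose and dac (-1.20 ± 0.22) and tll (-1.52 ± 0.41) fell in lola[E76] clones. Of these calls, shg in nerfin-1[159] and dac in lola[E76] clones held in every fit that left out 1 library, and 1 of the 7 genes was called in nerfin-1[159] clones without WT replicate 3. For lola[E76] clones 1 of the 7 was called without WT replicate 1, and 2 were when lola[E76] replicate 1 or 3 or else WT replicate 2 or 3 was left out.

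Haemocyte and fat body markers summed to 194 to 268.1 CPM in nerfin-1[159], 23.5 to 54.0 CPM in lola[E76] and 3.78 to 12.5 CPM in WT libraries. In each mutant library most of that sum was Col4a1, a basement membrane collagen, which was called in both mutants and averaged 236.2 ± 42.1 CPM in nerfin-1[159], 29.4 ± 9.62 CPM in lola[E76] and 5.09 ± 3.03 CPM in WT libraries (SD, n = 3 each). The partner collagen gene vkg was at 2.85 ± 0.918 CPM in nerfin-1[159], 4.32 ± 6.36 CPM in lola[E76] and 3.33 ± 2.17 CPM in WT libraries and was not called. Of the blood cell genes, He, NimC1 and srp were at 0 counts in both mutants. Hml, which encodes Hemolectin, had 10 counts in nerfin-1[159], 29 in lola[E76] and 2 in WT libraries, too few to be tested. The part of these other cells in the neuroblast gene results was not tested.

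A search for genes with the most similar pair of responses to 5 of the 10 used the distance between their log2 differences from WT, taken over both mutants. Nearest to klu was trbl, the cell cycle brake Tribbles, at a distance of 0.16 (2.65 in nerfin-1[159] and 0.63 in lola[E76] clones). Nearest to dpn were Pex7, a peroxisomal import receptor, at 0.17, and REPTOR, a transcription factor downstream of TORC1, at 0.19. Nearest to wor were CG6845 and yuri at 0.23 and 0.48, nearest to ase ImpL2 and CG13895 at 0.06 and 0.14, and nearest to mira CG18540 and Daxx at 0.06 and 0.13. The second gene for klu was CG12708 at 0.35. Since both responses share the WT libraries, these distances are a description over 3 genotype means.

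Lola.N contact was read from the authors' peak lists, 4676 peaks in N1 and 4544 in N2, each called against Dam alone per the file names. With a window of the annotated gene and 1 kb on either side, 9 of the 10 genes had a peak in both replicates, SoxN being the exception. Among all 17807 annotated genes 20.3% did, and among genes tested for RNA 29.7% did. Peaks become more frequent with gene length. Of the 6 members of 2 to 5 kb, 5 had one, against 25.8% of tested genes of that length, and all 3 members of 10 to 50 kb did, against 47.0% of tested genes of that length. Other lists also held many such genes: 15 of their 20 relatives, 14 of 22 division partners, 6 of 8 neuron markers and 4 of 4 ganglion mother cell markers had a peak in both replicates.

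The members held 27 peaks in N1 and 26 in N2. Of these, 21 in each replicate overlapped a peak of the other at the same gene, and 9 had the same start and end in both. The score printed beside each peak is the authors' own, on a scale that the sources used here do not state. Percentiles are ranks of that score within the replicate's list.

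The peak of highest rank lay beside wor. It covered 2L:15425784-15427427 in N1 (score 6.19, percentile 99.9) and 2L:15425784-15427446 in N2 (score 4.52, percentile 99), beginning 204 bases beyond the gene. A weaker peak inside wor (2L:15424450-15425356) had scores of 1.78 in N1 and 2.28 in N2. Elsewhere in the same cluster, esg had 1 peak in both replicates across its lower-coordinate end (2L:15333087-15334271, scores 3.60 in N1 and 2.00 in N2). The neighbouring Snail family gene, sna, had 1 peak in both (2L:15477698-15478960, scores 5.51 and 4.45). Of these 3 neighbours, wor alone was called in the RNA of lola[E76] clones.

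The dpn locus had a peak within the gene in both replicates (581 bases, scores 4.76 in N1 and 3.64 in N2) and another just beyond its higher-coordinate end (scores 5.75 in N1 and 4.32 in N2, percentiles 99.3 and 98.3). In N1 a second peak lay within the gene (score 4.70). At ase, a peak at the lower-coordinate end covered X:460191-460614 in N1, stopping 133 bases short of the gene, and X:460191-461139 in N2, reaching into it (scores 5.72 and 3.78). Another lay beyond the higher-coordinate end at X:464075-464737 in both (scores 3.45 and 3.27), and N1 also had one within the gene (X:462191-462828, score 3.16). Its complex neighbours sc and l(1)sc had peaks in both replicates near the gene, with scores of 2.68 and 1.42 for sc and of 4.64 and 3.81 for l(1)sc. Every peak given here for ase, sc and l(1)sc overlaps the gene CG32816, and some of those for ase overlap CG32816 alone. For ac the nearest peaks were 5.01 and 5.54 kb away.

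The mira peak shared by both replicates covered the higher-coordinate end of the gene (3R:19934789-19935575, scores 4.93 in N1 and 3.65 in N2, percentiles 95.4 and 92.5), and Hs6st overlaps the same interval. At nab, peaks in both replicates lay at either end (3L:4152512-4153209, scores 4.53 and 3.54, and 3L:4160711-4161597, scores 4.21 and 2.82). The long genes differed from each other. Across grh lay 7 peaks in N1 and 8 in N2, with scores up to 4.98 and 3.71, while klu held 3 and 5 peaks with scores up to 2.85 and 2.13. For insc the peak in each replicate lay at the higher-coordinate end, with scores of 2.00 in N1 and 2.25 in N2, and sktl overlaps it. For SoxN the nearest peak was 6.44 kb away in N1 and 0.533 kb away in N2, where its score was 1.19.

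**Figure D4:**
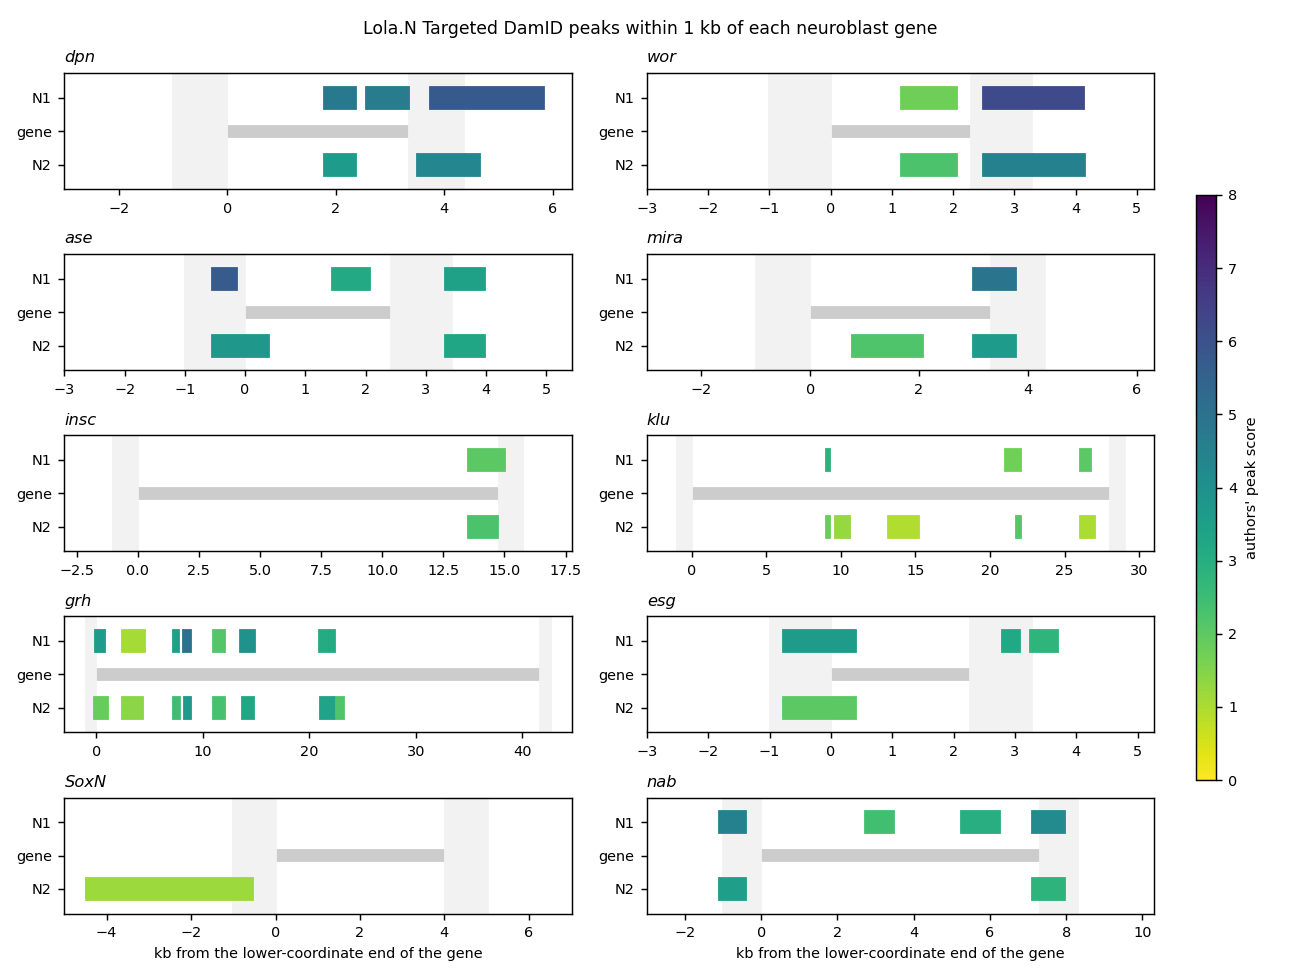
Lola.N peaks within 1 kb of each gene in N1 (above the gene) and N2 (below it), coloured by the authors' score, in kb from the end of the gene with the lower coordinate. The grey bar is the annotated gene and the shaded bands are the 1 kb on either side. Overlapping peaks recur in both replicates at every gene but SoxN, which has a peak in N2 alone.

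The peaks can be set beside the RNA calls. The 9 genes with a peak in both replicates included wor, ase and mira, which rose in lola[E76] clones, and dpn, insc, klu, grh, esg and nab, which were not called there. SoxN, without such a peak, was not called in lola[E76] clones either. With a peak in 9 of 10 genes no comparison of bound and unbound members was possible.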

How the data were processed

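RNA was measured in 9 QuantSeq libraries, which read a tag near the 3′ end of transcripts, and Lola.N contact in 2 Targeted DamID replicates. Per the labels' protocols each RNA sample combined sorts of several days, 33000 to 105000 cells and 15 to 70 ng of RNA. The authors deposited raw counts by gene; Subread, featureCounts and limma are named in the submitters' processing notes, with no version or role. The deposited DamID lists hold a peak score, called per replicate on GATC fragments with a false discovery rate of 0.01 in the file names. No source used here names the peak caller, the build or the annotation. The last peak on 3R ends at 32.08 Mb, beyond the end of that arm in Release 5, so genes were placed with the RefSeq table of Release 6, which carries no strand.

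Low genes were removed with filterByExpr (edgeR 4.0.16, R 4.3.3), libraries were scaled by TMM, and edgeR's quasi-likelihood model of the 3 genotypes was fitted over 9 libraries, with two-sided tests. SE is the fitted log2 difference divided by the square root of F. The fit was tested on simulated data. Replicate numbers did not pair samples (same-numbered libraries correlated at -0.06 to 0.02 in their deviations from the genotype mean), and no 2 libraries of a genotype came closer than a chi-square of 10.3 per degree of freedom. Alternatives used limma 3.58.1, DESeq2 1.42.0, other scalings and filters, and each library left out. Of 99 list entries 98 matched by symbol and 1 by synonym. The genes polo, pros, l(1)sc and nerfin-1 stand in more than 1 list, so the lists are not separate sets. Python 3.11.15, pandas 2.3.3, numpy 2.4.6 and matplotlib 3.10.9 served for peaks and figures.

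The members, lists and tests were chosen with earlier results of these data known. The text names all members and the mutated genes. It also names up to 4 called genes per list and comparison, taken from those of smallest adjusted p, though some within that rank were given no values. For dpn, wor, ase, mira and klu it names the 2 nearest genes of average log2 CPM of at least 3. The genes ac, sna, repo, mud, He, NimC1, srp, Hml and vkg, and those low in WT replicate 1, were named outside these rules after their values were seen. So were elav, cpx, Rdl, Hey and the E(spl) genes other than E(spl)mgamma-HLH. A planned count of promoter motifs was not made, since no sequence was used here. The Dam-only samples were not analysed here.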

Additional observations from a re-analysis of the deposited data

Results flagged for a closer look

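Of the 10 genes, 3 had responses to the mutations that differed between nerfin-1[159] and lola[E76] clones by a test of the difference itself. The log2 difference was 1.43 for dpn, 1.80 for insc and 2.12 for klu (edgeR adjusted p = 0.0323, 0.000196 and 9.47e-05), each higher in all 3 nerfin-1[159] libraries than in all 3 lola[E76] libraries. The insc and klu values held whichever library was left out, and the dpn call was lost in 5 of those 9 fits.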

How the results depend on the processing

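Of 480 alternative values of the 10 genes' log2 differences, 449 kept both direction and side of the threshold, 16 became called, 12 lost their call and 3 changed sign. The sign changes came from leaving out 1 library, none called with or without it. In nerfin-1[159] against WT esg ranged over -0.19 to 0.35 (lowest without nerfin-1[159] replicate 2), and in nerfin-1[159] against lola[E76] ase ranged over -0.05 to 0.44 (lowest without lola[E76] replicate 3) and grh over -0.93 to 0.03 (highest without nerfin-1[159] replicate 1). With no filter on low counts 5 of the 10 genes were called in lola[E76] against WT and 5 in nerfin-1[159] against lola[E76], in place of 3 each, and the cause was not tested. Leaving out 1 library gave 593 to 1008 called genes for nerfin-1[159] against WT (889 with all), 315 to 497 for lola[E76] against WT (484 with all; the lowest without WT replicate 1 or 2) and 889 to 1135 for nerfin-1[159] against lola[E76] (1156 with all). The other alternatives gave 820 to 1048, 431 to 673 and 1023 to 1371. With the replicate block 8, 4 and 3 of the 10 genes were called in these comparisons, grh being the addition in lola[E76] against WT (edgeR adjusted p = 0.0142); the numbers do not pair the samples, and its own number was the best match for 1 library of 9. Peaks in both replicates lay at 9 of the 10 genes with the gene body alone, with 5 kb on either side and with intersected peaks. Among all annotated genes 14.3%, 37.5% and 19.3% had them under these settings. With peaks at or above the median score 8 of the 10 genes had one, against 10.6% of all annotated genes. N1 alone gave 9 and N2 alone 10, against 26.5% and 26.0% of all annotated genes. Counting error is wide for dpn in WT replicate 1, which held 5 counts of it.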
